A study of Mus musculus with 7 samples.

Results

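The 10 genes described here encode the kinase JAK3, the transcription factors STAT5A and STAT5B, the feedback inhibitors CIS, SOCS1, SOCS2 and SOCS3, and the kinases PIM1, PIM2 and PIM3. They were taken by symbol from the deposited expression tables, where all 10 matched 1 entry each of 24726. The tables hold 5 RNA-seq libraries of mouse B-cell acute lymphoblastic leukaemia (B-ALL) on the C57BL/6 background. The 3 Pax5-Etv6 B-ALL libraries have the genotype Cdkn2ab+/-Pax5Etv6/+, in which 1 Pax5 allele is the Pax5-Etv6 fusion and 1 copy of the Cdkn2a and Cdkn2b locus is lost, and came from whole lymph node taken directly from the animal. The 2 control B-ALL libraries have the genotype Trp53-/- NrasG12D/+Retroviral-Myc, with no functional Trp53, an activated Nras allele and Myc delivered by retrovirus, and came from whole bone marrow after short-time culture. Genotype, organ, culture and, as far as the labels give it, the cDNA protocol differ together between the groups, so their contributions cannot be told apart. The labels give neither ages nor which animals were used, so the spread between samples behind every p-value may be technical. Whole reads recovered from the steps of the deposited values numbered 20110795 to 50994959 per library, as lower bounds of the depth.

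STAT5 is activated when cytokines such as interleukin-7 bring receptor-bound JAK kinases together, and in B-cell precursors this signal supports survival and growth. JAK3 binds the common gamma chain of these receptors and works beside JAK1. CIS and the SOCS proteins are made in response to STAT signalling and dampen it, by blocking JAKs, occupying receptor sites or recruiting ubiquitin ligases. The PIM proteins are serine/threonine kinases that need no activating phosphorylation, so their activity follows their abundance, and Pim1 is a known STAT5 target.

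Of the 10 genes, 9 rose and 1, Pim3, fell in Pax5-Etv6 B-ALL relative to control B-ALL (limma on log2(TPM + 1), where TPM is transcripts per 1000000; adjusted p below 0.05 after Benjamini-Hochberg correction across 11805 tested genes). Over all genes tested, 21.9% rose and 29.7% fell, so 51.7% were called in one direction or the other. The median log2 fold change was 2.12 for the 10 genes and -0.11 for all genes tested. In 9 of the 10 genes every Pax5-Etv6 library lay above both control libraries, and in Pim3 every one lay below, against 32.1% and 40.1% of all genes tested. In bulk samples such as these, fewer cells of a type and less RNA per cell cannot be told apart. Leaving out either control lowered the number that rose to 7, and leaving out control replicate 2 left none that fell.

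**Figure D1:**
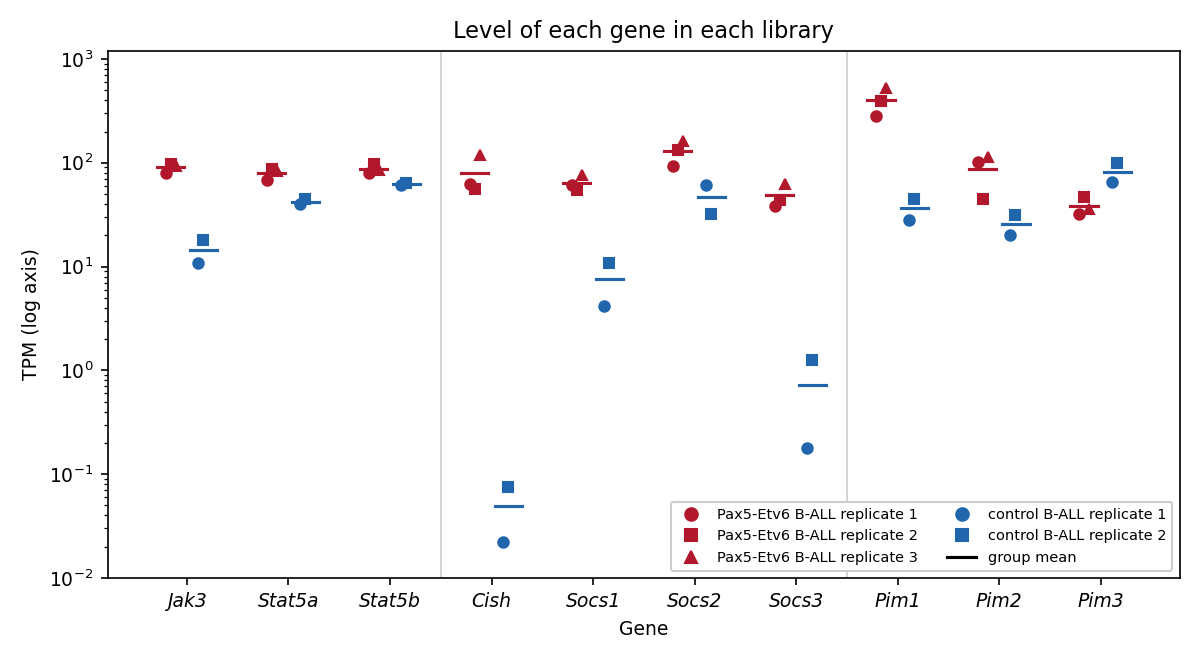
TPM of each gene (log axis) in each of the 5 libraries. Points are libraries, with their shape giving the replicate, and short lines are group means. In the CIS and SOCS panel the control points of Cish and Socs3 lie farthest below the Pax5-Etv6 points, and Pim3 is the gene whose control points are the higher ones.

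Promoters bear on these genes because STAT5 dimers bind the palindrome TTCNNNGAA, whose reverse complement is the same motif. RefSeq promoter windows (build GRCm38.p6, 250 bases before to 50 bases after an annotated start) were matched by symbol for 9 of the 10 genes, with 12 windows in all; Socs2 was not matched. The motif was present for 2 of these 9 genes, Cish and Socs3, with 1 window each. Counted by window rather than by gene, it was present in 8.30% of all 32851 windows. The Cish window held 2 matches, and 0.457% of all windows held 2 or more. They cover bases 1 to 9 and 12 to 20 from the annotated start, and the single Socs3 match covers bases -154 to -146. A match describes the letters of this window and does not show that STAT5 binds there, and no match says nothing of sites elsewhere. The 3 stretches printed here show the genes with the 2 highest fold changes among the 10, beside Pim1, the most abundant of them in Pax5-Etv6 B-ALL, whose windows hold no match. They run 5′ to 3′ with matches in capitals, and their positions are in GRCm38.p6, not in the mm9 build of the submitters' processing notes: Cish (chr9:107296409-107296678, plus strand, ending 20 bases after the start), Socs3 (chr11:117969367-117969616, minus strand) and Pim1 (chr17:29490535-29490784, plus strand), the last 2 ending just before the start.
Cish: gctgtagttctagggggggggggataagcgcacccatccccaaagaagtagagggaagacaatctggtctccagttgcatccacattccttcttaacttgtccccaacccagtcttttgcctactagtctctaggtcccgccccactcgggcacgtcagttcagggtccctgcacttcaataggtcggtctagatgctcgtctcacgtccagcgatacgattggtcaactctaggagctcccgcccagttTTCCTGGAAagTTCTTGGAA
Socs3: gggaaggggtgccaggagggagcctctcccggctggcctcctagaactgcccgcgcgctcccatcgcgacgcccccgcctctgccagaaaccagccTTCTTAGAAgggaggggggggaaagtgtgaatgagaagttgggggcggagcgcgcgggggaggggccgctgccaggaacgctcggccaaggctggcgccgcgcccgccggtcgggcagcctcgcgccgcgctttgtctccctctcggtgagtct
Pim1: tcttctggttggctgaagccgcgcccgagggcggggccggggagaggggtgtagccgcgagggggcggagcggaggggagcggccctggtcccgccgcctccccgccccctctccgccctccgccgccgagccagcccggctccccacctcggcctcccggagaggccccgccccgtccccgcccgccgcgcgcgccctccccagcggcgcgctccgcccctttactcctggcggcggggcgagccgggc

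The components that carry the signal were higher in Pax5-Etv6 B-ALL, with a wide gap for Jak3 and narrow ones for the STAT5 genes. Jak3 stood at 80.1, 98.2 and 93.3 TPM in Pax5-Etv6 replicates 1, 2 and 3 and at 10.8 and 17.8 TPM in control replicates 1 and 2. The mean was 6.32-fold higher, at 90.5 ± 9.33 (SD, n = 3) against 14.3 ± 4.93 TPM (SD, n = 2), a log2 fold change of 2.61 ± 0.24 (SE, limma adjusted p = 0.000726). The deposited name of Jak3 carries a tag read here as a mark of overlapping genes, which the files do not define, and in RefSeq the hormone gene Insl3 overlaps it. Insl3 was listed at 0.629, 6.19 and 4.81 TPM against 0.164 and 0.974 TPM, below Jak3 in every library. No source used here states how reads shared by these genes were counted.

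Stat5a stood at 68.8, 86.9 and 83.0 TPM against 40.1 and 44.5 TPM, a log2 fold change of 0.89 ± 0.17 (adjusted p = 0.00671). Stat5b stood at 80.1, 97.3 and 84.6 TPM against 61.6 and 63.6 TPM, a log2 fold change of 0.47 ± 0.15 (adjusted p = 0.0417). Both genes were separate between the groups, but the call of Stat5b was lost under more alternatives than that of any other of the 10. It was lost without any 1 of Pax5-Etv6 replicates 2 (adjusted p = 0.18) or 3 (0.102) and control replicates 1 (0.114) or 2 (0.0718), and without a mean-variance trend (0.0752), within a range of 0.0171 to 0.18. Stat5b was the more abundant of the pair in all 5 libraries, with Stat5a giving 46.2%, 47.2% and 49.5% of their summed TPM in Pax5-Etv6 B-ALL and 39.4% and 41.2% in control B-ALL. Together they averaged 167 ± 17.7 TPM against 105 ± 4.57 TPM, a ratio of 1.59. The 2 genes are close paralogs, so short reads may be divided uncertainly between them.

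Among the feedback inhibitors, Cish and Socs3 were almost absent from control B-ALL and were readily measured in Pax5-Etv6 B-ALL. Cish, which encodes CIS, a competitor for STAT5 docking sites on receptors, stood at 61.9, 55.7 and 119 TPM in Pax5-Etv6 B-ALL and at 0.0222 and 0.0756 TPM in control B-ALL. Whole reads recovered from the deposited values, the smallest whole numbers that fit them, gave 1448, 1094 and 3380 reads of Cish against 1 and 2 reads. The pooled rate was 1975-fold higher, with an exact 95% interval of 675 to 9579 that covers counting error only. Fitted on log2(TPM + 1), a scale that compresses changes of genes this low, the log2 fold change was 6.17 ± 0.37 (adjusted p = 0.000391), the 10th highest of 11805 genes tested. It was 3.98 with a pseudocount of 5 TPM, 8.99 with 0.1 TPM and 10.57 with voom on the recovered reads, and was called under each.

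Socs3, whose product blocks JAK activity at gp130-type receptors, stood at 38.4, 44.1 and 62.8 TPM against 0.176 and 1.26 TPM. All Pax5-Etv6 libraries exceeded both controls, which rested on 10 and 42 recovered reads. The log2 fold change was 4.89 ± 0.37 (adjusted p = 0.000512), with 3.20 at a pseudocount of 5 TPM, 6.28 at 0.1 TPM and 6.89 with voom on the recovered reads. Socs1, a direct inhibitor of JAK kinases that also limits interferon-gamma signalling, stood at 60.4, 54.1 and 75.7 TPM against 4.13 and 10.9 TPM. Its mean was 8.42-fold higher (log2 fold change 3.03 ± 0.38, adjusted p = 0.00163). The log2 fold change of Socs1 was 2.42 without control replicate 1 (adjusted p = 0.00856) and 3.64 without control replicate 2 (adjusted p = 0.0029).

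Socs2, best known as a brake on growth hormone signalling, had the lowest fold change of the 4 inhibitors and was the one with a substantial level in control B-ALL. It stood at 94.0, 132 and 160 TPM against 61.0 and 32.0 TPM (log2 fold change 1.49 ± 0.33, adjusted p = 0.0113). The groups did not overlap, although without control replicate 2 the call was lost (1.03, adjusted p = 0.0558). The makeup of the 4 inhibitors differed: Socs2 gave 36.9%, 46.2% and 38.3% of their summed TPM in Pax5-Etv6 B-ALL and 93.4% and 72.3% in control B-ALL. Cish gave 24.3%, 19.5% and 28.5% against 0.034% and 0.171%. The share of Socs3 was even across the Pax5-Etv6 libraries, at 15.1%, 15.4% and 15.0%. The share of Socs1 overlapped between the groups, at 23.7%, 18.9% and 18.1% against 6.32% and 24.7%. Together the 4 averaged 320 ± 86.8 TPM against 54.8 ± 14.9 TPM, a ratio of 5.83.

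**Figure D2:**
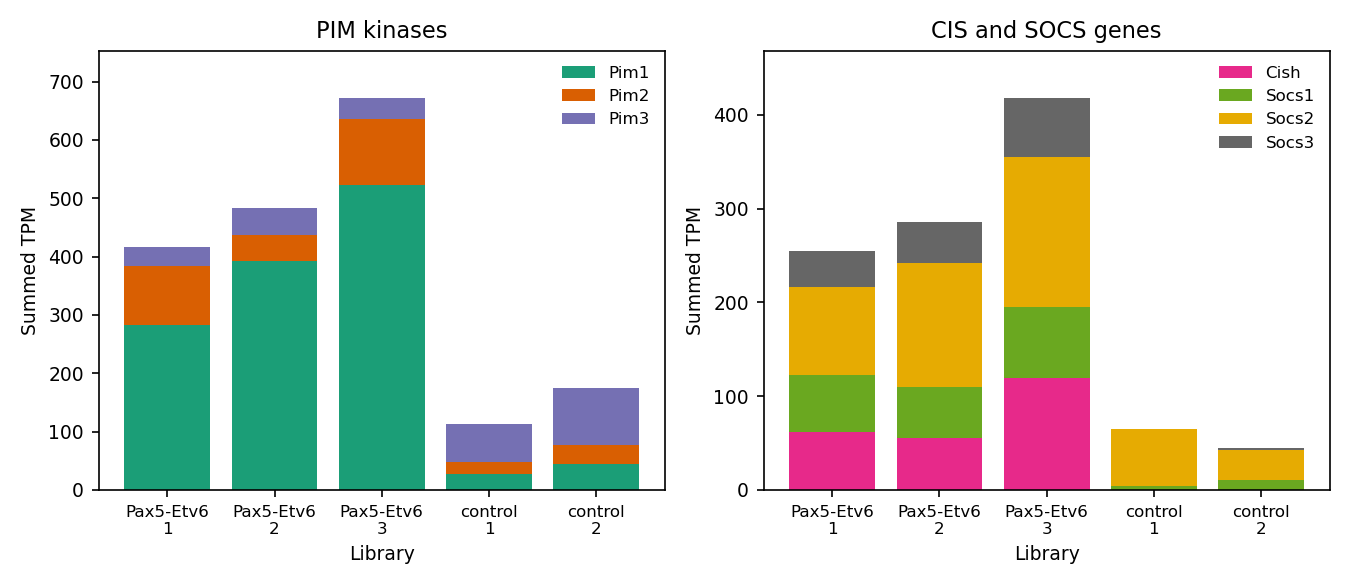
Summed TPM of the PIM kinases (left) and of the CIS and SOCS genes (right) in each library, with bar segments for single genes. Pim1 is the largest segment in the 3 Pax5-Etv6 libraries and Pim3 in both controls, and the control bars of the inhibitors are mostly Socs2.

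The PIM kinases moved in opposite directions, and the most abundant member was Pim3 in control B-ALL and Pim1 in Pax5-Etv6 B-ALL. Pim1, a kinase that promotes survival and cell-cycle entry, stood at 283, 392 and 523 TPM against 28.0 and 44.6 TPM. Its mean was 11.0-fold higher (log2 fold change 3.42 ± 0.31, adjusted p = 0.000679), and it was the most abundant of the 10 genes in each Pax5-Etv6 library. Pim2, which is regulated mainly through its transcription and promotes survival, stood at 102, 44.6 and 113 TPM against 20.1 and 31.7 TPM. The groups did not overlap, with Pax5-Etv6 replicate 2 nearest to the controls, and the log2 fold change was 1.63 ± 0.43 (adjusted p = 0.0199). This call was lost without control replicate 1 (1.31, adjusted p = 0.151) and with no filter on low genes (adjusted p = 0.051).

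Pim3, the third kinase of the family, stood at 32.0, 46.5 and 35.6 TPM in Pax5-Etv6 B-ALL and at 65.1 and 99.3 TPM in control B-ALL. Both controls lay above every Pax5-Etv6 library, and the control mean was 2.16-fold the higher one. The log2 fold change was -1.08 ± 0.25 (adjusted p = 0.0135), and without control replicate 2 it was -0.78 and no longer called (adjusted p = 0.0649). Pim1 gave 67.9%, 81.1% and 77.8% of the summed PIM level in Pax5-Etv6 B-ALL and 24.7% and 25.4% in control B-ALL. Pim3 gave 7.68%, 9.63% and 5.30% against 57.5% and 56.6%. The share of Pim2 overlapped between the groups, at 24.4%, 9.24% and 16.9% against 17.8% and 18.0%. Within a library, the log2 ratio of Pim1 to Pim3 on the TPM + 1 scale was 3.11, 3.05 and 3.84 in Pax5-Etv6 B-ALL and -1.19 and -1.14 in control B-ALL, which reverses their order. With 3 against 2 libraries no exact two-sided permutation test of such a ratio can reach 0.05, so none was made. Together the 3 kinases averaged 524 ± 133 TPM against 144 ± 44.2 TPM, a ratio of 3.63.

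**Figure D3:**
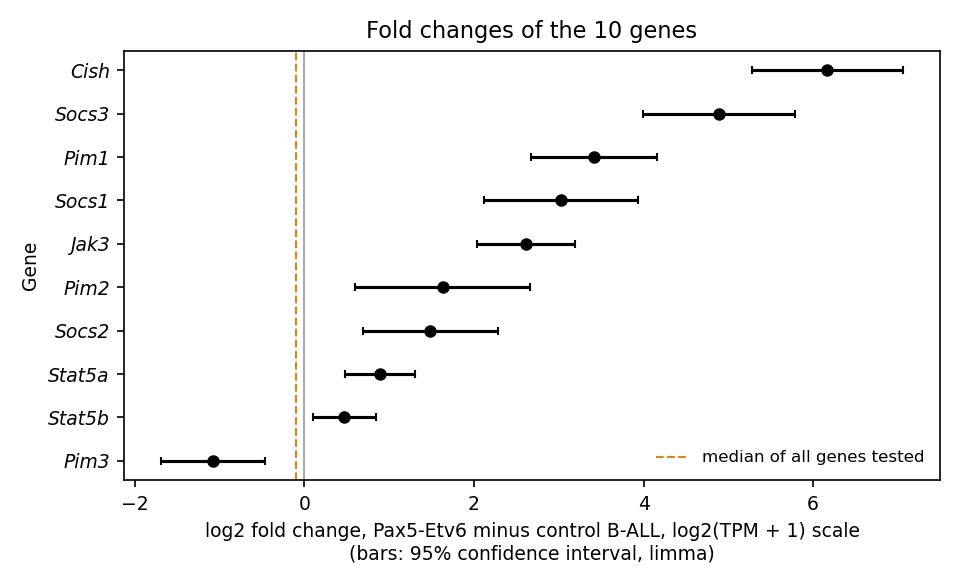
Log2 fold change (Pax5-Etv6 minus control B-ALL, log2(TPM + 1) scale) of the 10 genes, with 95% confidence intervals from limma and a dashed line at the median of all genes tested. Cish and Socs3 lie farthest to the right, and the interval of Pim3 is the one below 0.

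TPM is per length, so the levels of the 10 genes can be ordered within a group. In Pax5-Etv6 B-ALL the order by mean TPM was Pim1 (399 ± 120), Socs2 (129 ± 33.3), Jak3, Stat5b, Pim2, Stat5a, Cish (79.0 ± 35.1), Socs1, Socs3 and Pim3 (38.0 ± 7.56). Pim1 stood clear of Socs2 in every library, and every later pair of neighbours overlapped in range. In control B-ALL the order was Pim3 (82.2 ± 24.2), Stat5b (62.6 ± 1.41), Socs2, Stat5a, Pim1 (36.3 ± 11.7), Pim2, Jak3, Socs1 (7.53 ± 4.80), Socs3 (0.718 ± 0.766) and Cish (0.0489 ± 0.0377). There, Socs2 with Stat5a, Stat5a with Pim1, Pim1 with Pim2, and Jak3 with Socs1 were the neighbours whose ranges overlapped. Pim3 was thus first in one group and last in the other.

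The libraries of a group also differed among themselves. Pax5-Etv6 replicate 3 was the highest of its group for 6 of the 10 genes, namely Cish, Socs1, Socs2, Socs3, Pim1 and Pim2, while replicate 2 was highest for Pim3, Jak3, Stat5a and Stat5b. Over all genes tested, replicate 3 was highest in 45.5% and replicate 2 in 31.1%. Control B-ALL replicate 2 exceeded replicate 1 in 9 of the 10 genes, all but Socs2, against 54.6% of all genes tested.

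The remaining JAK and STAT genes were higher in Pax5-Etv6 B-ALL as well, whereas the counts for other inhibitors of the pathway were close to those over all genes. Of all genes tested, 21.9% rose and 29.7% fell. All 8 other JAK and STAT genes rose (median log2 fold change 1.34), but 4 remained called without control replicate 1 and 5 without control replicate 2. Jak1, the usual partner of JAK3, also tagged as overlapping, stood at 377, 151 and 168 TPM against 75.5 and 66.5 TPM (log2 fold change 1.57 ± 0.39, adjusted p = 0.0161). That call was lost without control replicate 1 (adjusted p = 0.0889) or 2 (0.0904). Jak2, which serves receptors such as that for erythropoietin, was lower in level, at 14.8, 18.1 and 16.2 TPM against 7.53 and 5.63 TPM (log2 fold change 1.20 ± 0.25, adjusted p = 0.00855). Stat4, which acts downstream of interleukin-12, had the highest fold change of the list (3.31 ± 0.69, adjusted p = 0.00899), although its call was lost without control replicate 1 (adjusted p = 0.0706) or 2 (0.054).

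Of 16 other negative regulators, 4 rose, 5 fell and 7 were not called (median 0.22). These are 25.0% higher and 31.2% lower, near the 21.9% and 29.7% of all genes tested, so the list does not stand apart by its counts. Those that rose were the phosphatases Ptpn6 (1.89 ± 0.37, adjusted p = 0.00751) and Ptpn1, the ubiquitin ligase Cbl and the STAT inhibitor Pias3. None of these 4 was called without control replicate 1, and 2 genes of the list rose without Pax5-Etv6 replicate 3 or with no filter on low values. Those that fell were Pias2 (-1.36 ± 0.21, adjusted p = 0.00311), the phosphatases Ptpn2 and Ptpn11, and Socs4 and Socs6, which belong to the SOCS family but are not classical STAT5 feedback genes. Socs4 stood at 19.9, 24.2 and 24.0 TPM against 49.1 and 46.1 TPM (log2 fold change -1.04 ± 0.19, adjusted p = 0.00525), with both controls above every Pax5-Etv6 library. Without control replicate 1, 3 of the 5 that fell were called.

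**Figure D4:**
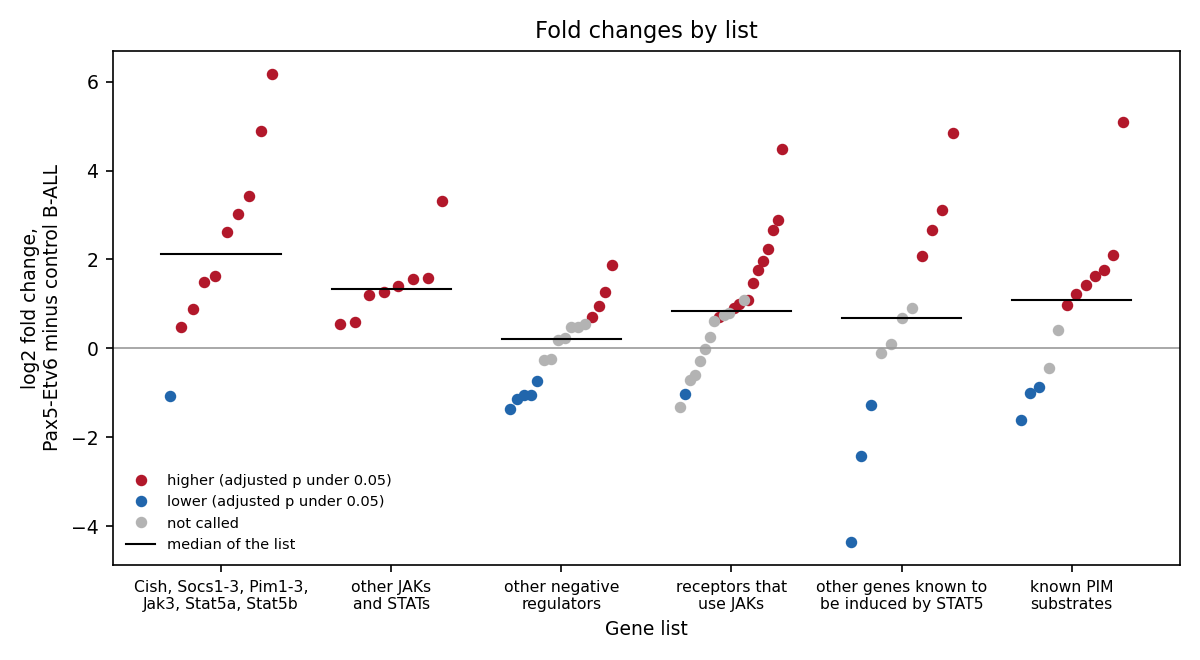
Log2 fold change of each tested gene in the 10 genes and in 5 further lists; points are genes, coloured by call, and black lines are list medians. All points of the other JAKs and STATs lie above 0, and the other negative regulators lie on both sides of it.

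Receptors that signal through JAKs were higher or not called, with 1 exception. Of 22 tested among 30 listed, 11 rose, 1 fell and 10 were not called (median 0.85), and 5 rose without control replicate 1. Without Pax5-Etv6 replicate 1, 2 fell. With all libraries, 50.0% of the 22 rose and 4.55% fell, against 21.9% and 29.7% of all genes tested. Il2ra, the inducible interleukin-2 receptor chain and itself a known STAT5 target, stood at 67.8, 152 and 153 TPM against 20.3 and 15.0 TPM (log2 fold change 2.67 ± 0.38, adjusted p = 0.00253). Il10ra, of the interleukin-10 receptor, whose name carries an overlap tag, had the highest fold change (4.49 ± 0.53, adjusted p = 0.00141). The gene that fell was Il15ra (-1.03 ± 0.31, adjusted p = 0.0308), whose call was lost without control replicate 1 (adjusted p = 0.147) or 2 (0.0839), without Pax5-Etv6 replicate 2 (0.0545), and with no filter (0.0636). Neither chain of the interleukin-7 receptor was called. Il7r stood at 152, 279 and 380 TPM against 163 and 85.6 TPM, so the groups overlapped (1.09 ± 0.43, adjusted p = 0.0744). Without Pax5-Etv6 replicate 1 Il7r was called (1.45, adjusted p = 0.0113), as it was with median-of-ratios scaling (0.0459) and voom (0.0474). Il2rg, the common gamma chain, stood at 140, 83.1 and 107 TPM against 77.9 and 103 TPM (log2 fold change 0.26 ± 0.25, adjusted p = 0.417). The cytokines themselves were almost absent, with 1 of 18 passing the filter on low values. That gene, oncostatin M (Osm), stood at 9.25, 13.0 and 14.5 TPM against 6.02 and 8.40 TPM and was not called by limma (unadjusted p = 0.0573, adjusted p = 0.094). It was called with median-of-ratios scaling, with quantile normalization and without Pax5-Etv6 replicate 1.

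Of 11 tested among 12 other genes known to be induced by STAT5, 4 rose, 3 fell and 4 were not called (median 0.69). The share that fell, 27.3%, is near the 29.7% of all genes tested, and 36.4% rose against 21.9%. Those that rose were Il2ra, the survival gene Bcl2l1 (3.10 ± 0.53, adjusted p = 0.00443), and the cyclins Ccnd2 (4.84 ± 0.65, adjusted p = 0.00207) and Ccnd3, which is tagged as overlapping and lost its call without control replicate 1 (adjusted p = 0.134). Bcl2l1, which encodes BCL-XL, stood at 76.1, 166 and 156 TPM against 7.56 and 24.3 TPM. Those that fell were Ccnd1 (-4.34 ± 0.37, adjusted p = 0.000608), Bcl2, which was low in all libraries (0.453, 0.242 and 0.286 against 1.73 and 2.70 TPM), and Myc. The control leukaemias carry Myc as a retrovirus, and its part in the Myc difference was not tested.

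Of 12 tested among 13 genes whose products are known PIM substrates, 7 rose, 3 fell and 2 were not called (median 1.10), or 58.3% higher and 25.0% lower against 21.9% and 29.7%. The cell-cycle inhibitor Cdkn1a, a p53 target, stood at 83.2, 138 and 70.0 TPM against 0.878 and 3.07 TPM (log2 fold change 5.09 ± 0.43, adjusted p = 0.000602). The controls lack Trp53, and whether this bears on the difference was not tested. The chemokine receptor Cxcr4 (2.09 ± 0.22, adjusted p = 0.00107) and the death promoter Bad (1.77 ± 0.21, adjusted p = 0.00149) also rose. The translation repressor Eif4ebp1 and the phosphatases Cdc25a and Cdc25c were the 3 that fell, but none of them was called without control replicate 1. Without control replicate 2, without Pax5-Etv6 replicate 2 or with no filter, 1 was.

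Summed markers of other cell types that a whole organ can hold were higher in Pax5-Etv6 B-ALL, except those of dendritic cells, where Bst2 set the sum. All 9 B-lineage markers were above 1 TPM in every library, with a summed level of 6672 to 8116 TPM in Pax5-Etv6 B-ALL and 3119 to 4058 TPM in control B-ALL. That difference came from Cd79a and Cd79b, which encode the signalling chains of the B-cell receptor. The other 7 summed to 1579, 1431 and 1602 against 1675 and 1919 TPM, lower in Pax5-Etv6 B-ALL, but without Blnk the groups would overlap. Blnk, an adaptor of the same receptor, fell, at 55.0, 33.0 and 32.8 against 335 and 302 TPM (log2 fold change -2.99, adjusted p = 0.000608). Ebf1 rose, at 260, 369 and 366 against 137 and 151 TPM (log2 fold change 1.18, adjusted p = 0.00396). Of the 9, 3 rose (Cd79a, Cd79b and Ebf1), 1 fell (Blnk) and 5 were not called, with a median log2 fold change of 0.09. Neutrophil markers summed to 34.9 to 291 against 0.401 to 0.547 TPM, with 5 and 4 of the 10 at 0 in the controls. Macrophage markers summed to 181 to 604 against 46.2 to 87.7 TPM. Of the 10 tested, 5 rose, 4 were not called and 1, Itgam, fell, at 3.77, 3.01 and 3.60 against 20.2 and 15.2 TPM. Stromal and endothelial markers summed to 313 to 997 against 80.4 to 91.7 TPM (79.5, 775 and 173 against 3.52 and 11.8 TPM without Pecam1, which gave most of the control sums). Erythroid markers summed to 13.1 to 83.3 against 0.390 to 0.583 TPM, mostly through Alas2, which is tagged as overlapping. Without Alas2 they summed to 9.64, 1.72 and 2.49 against 0 and 0.0180 TPM. All haemoglobin entries, which are tagged as overlapping too, were at 0 in every library. How reads of tagged entries were counted is not stated, so these values of 0 do not show that red-cell RNA was absent. T-cell markers summed to 356 to 513 against 15.6 to 70.1 TPM, mostly through Lck and Cd2. Cd2 overlapped between the groups, at 168, 11.1 and 40.7 against 8.03 and 57.1 TPM. Without Lck the sums were 175, 45.8 and 84.9 against 8.79 and 58.2 TPM, which overlap as well. That overlap came from Cd2: with both left out the sums were 7.15, 34.7 and 44.2 against 0.769 and 1.17 TPM, which do not overlap. Cd3e had 0.193, 0.537 and 0.637 TPM against 0 and 0. NK-cell markers summed to 7.38 to 9.05 against 0.448 to 0.871 TPM, and dendritic-cell markers to 51.3 to 111 against 122 to 143 TPM, nearly all of it Bst2. Bst2 itself was not called (limma adjusted p = 0.154). Without Bst2 the dendritic-cell sums were 1.15, 1.82 and 1.24 against 0.686 and 0.603 TPM, low in every library but higher in Pax5-Etv6 B-ALL.

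Within Pax5-Etv6 B-ALL the highest marker sums fell in replicate 1 for neutrophils (291 TPM) and erythroid cells (83.3 TPM) and in replicate 2 for macrophages (604 TPM) and stroma (997 TPM). Cish, Socs1, Socs3 and Pim1 were highest in replicate 3, where these sums were 160, 25.1, 221 and 466 TPM. The B-lineage (8116 TPM), T-cell (513 TPM, with 511 TPM in replicate 2) and NK-cell (9.05 TPM, with 8.94 TPM in replicate 2) sums were highest in replicate 3 as well. These orders rested partly on single genes. The T-cell sum without Lck was highest in replicate 1 (175 TPM, with 84.9 TPM in replicate 3). With Cd2 left out too, it was highest in replicate 3 (44.2 TPM). The NK-cell sum without Gzma was highest in replicate 1. The B-lineage sums without Cd79a and Cd79b were 1579, 1431 and 1602 TPM. Cish, Socs1, Socs3 and Pim1 each kept their call without any single library. The part of other cells in these levels was not tested.

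By distance between log2(TPM + 1) profiles over the 5 libraries, the tested genes nearest to Cish were Gbp7 (distance 0.32), an interferon-inducible GTPase gene, Ston1 (0.97) and Fetub (1.25). Nearest to Socs3 were Nudt22 (0.66), Fes (0.67) and Caskin2 (0.78), and nearest to Pim1 were Ypel3 (0.90), Tap1 (0.98) and Gimap1 (1.03). Profiles over 5 libraries in 2 groups are dominated by the difference between the groups, and a small distance says only that the levels were alike.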

How the data were processed

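Polyadenylated RNA was sequenced, and the authors deposited 1 table of TPM per library, each summing to 1000000 over 24726 entries. The submitters' processing notes name the mm9 build with DESeq2 1.4.1 and HTSeq 0.5.3. The role of each tool, the aligner and the source of gene lengths were not given in the sources used here. The labels call the Pax5-Etv6 libraries strand-specific and leave this blank for the controls. The 2 chromatin immunoprecipitation samples were not analysed here.

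A gene entered the test if 2 or more libraries reached 1 TPM. Values of log2(TPM + 1) were fitted in limma 3.58.1 under R 4.3.3 (empirical Bayes with a trend, two-sided, 3 residual degrees of freedom). Members and lists were chosen with earlier results of these data known. Named genes were all members, up to 4 called genes per list and direction with a mean of at least 5 TPM, Il7r, Il2rg, Jak1 and Jak2, the 2 highest genes of a marker list, and the 3 nearest to Cish, Socs3 and Pim1 in Euclidean distance. Bcl2, Socs6, Insl3, Osm, Blnk, Cd3e, Ebf1 and Itgam were added after their values were seen. Replicates were numbered in accession order.

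TPM values were whole multiples of 1 read in 100% of 16538 entries above 0 in at least 2 libraries (tolerance 1e-08), giving 20110795 to 50994959 reads per library as lower bounds. The interval of the pooled Cish rate is exact (95%) and covers counting error only. It may be too narrow even for that, since PCR copies are not independent molecules. The intervals of the log2 fold changes are 95% confidence intervals from limma. The fit was tested on simulated data. Alternatives were other pseudocounts, filters and scalings, no trend, robust estimation, voom on the recovered reads, leaving out tagged genes, and leaving out each library.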

Additional observations from a re-analysis of the deposited data

How the results depend on the processing

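Over 16 alternatives (15 for Jak3, which carries a tag), none of the 10 genes changed direction. Of 159 fits, 150 kept the call and 9 lost it, all of them for Socs2, Pim2, Pim3 and Stat5b as given above. Without each replicate in turn, the members that rose numbered 7 to 9 and those that fell 0 to 1. Over all genes, those higher numbered 1410 to 2984 and those lower 1954 to 3350 without each replicate in turn, against 2588 and 3511, and both extremes at the low end came without control B-ALL replicate 1, where the lone control is assumed to vary like the other group. With voom on the recovered reads 3070 genes were higher and 3289 lower. With TTC and GAA set 4 bases apart in place of 3, the number of members with a promoter match was 0 in place of 2. This is a different motif, present in 6.95% of all 32851 windows, so 0 among the 12 windows of members says little. Median-of-ratios scaling moved the median log2 fold change of all genes from -0.11 to -0.0025, with the directions of all 10 genes kept. For the 48 further named genes, 675 of 727 fits kept the call, 49 lost it, 3 gained it (all Il7r) and none reversed; the causes were not tested. Of 42 recalculated differences between ratios of members, 34 stayed within 1 SD and none changed sign. No paired analysis was possible because the labels give the libraries no shared replicate numbers. Cish in control B-ALL rested on 1 and 2 reads, which limits the precision of its fold.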
